A study of Mus musculus with 24 samples.

Results

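Beta-defensins are small, cationic, cysteine-rich peptides that epithelia release at their surfaces, where they damage microbial membranes and act on chemokine receptors of immune cells. Their genes lie in clusters that arose by duplication, and many mouse members are best known from the male reproductive tract and other epithelia. The choroid plexus, which secretes cerebrospinal fluid and hangs into the ventricle beside the hippocampus, is one of the epithelia of the brain. The genes described here are Defb11, Defb9, Defb10, Defb35 and Defb1, which lie near each other on mouse chromosome 8. Their probes were taken by gene name. The genes themselves were chosen by measured values, namely the log2 signals that set MS5 apart from Con for several of them. The 5 genes are covered by 5 probes, of 51 probes for 43 beta-defensin genes on the array and of 55681 probes for 36163 gene names in all.

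RNA came from the hippocampus of male C57BL/6 mice at postnatal day 9, with 5 arrays in each of 3 groups. Con animals were untreated. MS2 and MS5 animals received 2 or 5 mg/kg morphine from postnatal day 5, and both also went through maternal separation and repeated brief apnea, so no group had morphine or stress alone. Values are log2 signals of one-colour Agilent arrays, background-adjusted and quantile-normalized by the study, and each array is named by its group and replicate number. A flag of the scanner software marks a spot whose signal stood well above its local background.

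Some arrays went against their labels. On the array MS5 9, labelled male, the X-inactivation RNA Xist was at 11.34, against 5.89 to 6.08 on the other arrays, and the Y-linked gene Ddx3y was at 6.24, against 11.01 to 11.45. On the array MS2 4, labelled hippocampus, Neurod6, a gene of pyramidal neurons, was at 10.02, against 13.03 to 13.89 elsewhere, while the hypothalamic peptide genes Pmch and Hcrt were at 13.33 and 12.31, against at most 7.55 and 8.45. Of the hypothalamic peptide genes, Avp and Oxt were also high on MS5 8, 12 and 14, but Hcrt was not. Avp was at 11.99, 12.47 and 10.79 there, against at most 8.18 on the Con arrays. Oxt was at 10.44, 9.89 and 11.62, against at most 7.86. Hcrt was at 8.06, 7.99 and 8.08, against 7.92 to 8.13 on the Con arrays. Pmch was at 6.55, 7.55 and 6.38, against 5.99 to 6.76. Neurod6 was not low on these 3 arrays in the way it was on MS2 4. The array MS2 5 was dim, with a median unnormalized signal of 58.2 against 121 to 154 on the others. For the detected members, the MS5 minus Con and MS2 minus Con differences and the main correlations are given with and without MS5 9 or MS2 4. The MS5 minus MS2 differences include both arrays, apart from ranges over single arrays left out. Differences that take the slide or a marker list into account also include them.

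Defb11 is read by a probe at chr8:23015921-23015980 on the minus strand, in the mm9 build named in the scanner files. The Defb9 probe lies at chr8:22992251-22992310 on the minus strand, the Defb10 probe at chr8:22972326-22972385 on the plus strand and the Defb35 probe at chr8:23051288-23051347 on the plus strand. The Defb1 probe lies at chr8:22905041-22905100 on the plus strand. The probe sequences are shown because related genes could share signal through similar probes, and capitals mark the longest run that each shares with another of the 4.
Defb11: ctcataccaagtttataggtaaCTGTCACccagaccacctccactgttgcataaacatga
Defb9: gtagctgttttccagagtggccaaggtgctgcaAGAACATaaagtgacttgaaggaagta
Defb10: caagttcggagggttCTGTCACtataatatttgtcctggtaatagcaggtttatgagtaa
Defb35: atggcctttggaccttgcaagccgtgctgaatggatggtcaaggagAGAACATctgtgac
Those runs were 7 bases long, shared by Defb11 with Defb10 and by Defb9 with Defb35. None of the 5 member probes had a run of 16 bases in common with any other probe of the array.

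The sequences before the gene starts shared longer runs than the probes did. Windows of 250 bases and probes of 60 bases are not like for like, and Defb35 has a probe but no window. RefSeq windows, in the GRCm38.p6 build, were found for 3 of the 5 members, and the 250 bases before the annotated start of each are shown because these members moved together across the arrays. Capitals mark the longest run that the 3 windows share. The Defb10 window is chr8:21858651-21858900 on the plus strand, the Defb9 window chr8:21885435-21885684 on the minus strand and the Defb11 window chr8:21906433-21906682 on the minus strand, each written along its gene.
Defb11: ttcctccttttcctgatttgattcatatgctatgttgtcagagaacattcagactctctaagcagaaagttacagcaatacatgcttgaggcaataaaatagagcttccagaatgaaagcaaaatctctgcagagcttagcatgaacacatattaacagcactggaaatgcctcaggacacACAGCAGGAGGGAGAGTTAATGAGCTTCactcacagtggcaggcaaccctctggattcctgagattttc
Defb9: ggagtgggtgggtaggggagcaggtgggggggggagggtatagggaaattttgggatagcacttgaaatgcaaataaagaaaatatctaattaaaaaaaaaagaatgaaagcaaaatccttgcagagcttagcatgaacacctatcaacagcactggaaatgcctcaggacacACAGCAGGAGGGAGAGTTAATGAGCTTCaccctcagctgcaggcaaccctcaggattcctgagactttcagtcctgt
Defb10: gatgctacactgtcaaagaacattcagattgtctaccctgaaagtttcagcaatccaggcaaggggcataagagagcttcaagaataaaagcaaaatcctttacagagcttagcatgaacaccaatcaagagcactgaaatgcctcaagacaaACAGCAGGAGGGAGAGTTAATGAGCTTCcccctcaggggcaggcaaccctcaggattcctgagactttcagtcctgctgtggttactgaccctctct

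The shared run was 28 bases long. It began 69 bases before the start of Defb11, 77 before that of Defb9 and 97 before that of Defb10. Of 32851 windows of the same length, for 27025 genes, 3 held this run on either strand, and they were those of Defb9, Defb10 and Defb11. In local alignments, Defb9 and Defb11 were identical at 131 of 141 columns, Defb9 and Defb10 at 139 of 150, and Defb10 and Defb11 at 188 of 225. The windows of Defb15 and Defb13, neighbours in the same cluster, shared no run longer than 10 bases with any of the 3. The TATA box letters TATAAA, sought on both strands, were in none of the 3 member windows, in that of Defb15, and in 12.4% of all windows. The homeodomain letters TAATCC, sought in the same way, were in none of the 3 and in 6.25% of all windows. The NF-kB motif was in none of the 3 and in 7.25% of all windows. The E box letters CANNTG were in the windows of Defb9 and Defb11, not in that of Defb10, and in 66.2% of all windows. A match of letters is a description of the window and not a bound site. Whether the shared sequence bears on the signals was not tested.

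In these hippocampal samples Defb11, Defb9, Defb10 and Defb35 were detected, their signal was lowest on MS5 arrays, and MS5 9 and MS5 14 were the lowest of all. Defb11 gave a signal well above background on all 15 arrays. It stood at 10.84, 11.80, 11.58, 11.26 and 11.33 on Con 15, 16, 17, 18 and 19. It stood at 11.41, 11.60, 10.56, 10.92 and 10.68 on MS2 1, 3, 4, 5 and 7. It stood at 10.77, 8.38, 11.12, 10.02 and 7.24 on MS5 8, 9, 12, 13 and 14. The Con and MS2 arrays overlapped, 4 of 5 MS5 arrays lay below every Con array, and MS5 12 lay within the Con range. The group means were 11.36 ± 0.36 (SD, n = 5) in Con, 11.04 ± 0.45 in MS2 and 9.51 ± 1.65 in MS5. On MS5 14 the signal was 17.3-fold below the Con mean and on MS5 9 it was 7.90-fold below, whereas on MS5 12 it was 1.18-fold below. The MS5 minus Con difference of the log2 means was -1.85 with all arrays, -1.57 without MS5 9, -1.29 without MS5 14 and -0.72 without both.

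Defb9, the next gene of the cluster towards Defb1, had the same order of arrays at its low end. Its values were 7.92, 8.72, 8.53, 8.37 and 8.24 on the Con arrays and 8.20, 8.62, 7.78, 8.22 and 7.68 on the MS2 arrays, in the order given for Defb11. Its MS5 values were 7.99, 6.50, 8.22, 7.42 and 6.05. MS5 9, 13 and 14 lay below every Con array, and MS5 8 and 12 lay among them. The spot was well above background on 14 arrays, the exception being MS5 14. The means were 8.36 ± 0.30 in Con, 8.10 ± 0.38 in MS2 and 7.24 ± 0.94 in MS5, a MS5 minus Con difference of -1.12 with all arrays, -0.93 without MS5 9 and -0.48 without MS5 9 and 14.

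Defb10 varied within a smaller range. It was at 6.75, 7.23, 7.02, 6.97 and 6.77 on the Con arrays and at 7.02, 7.20, 6.75, 6.77 and 6.60 on the MS2 arrays. It was at 6.69, 5.97, 6.98, 6.49 and 5.94 on the MS5 arrays. All MS5 arrays but MS5 12 lay below the Con arrays, and the spot was not well above background on MS5 9 and 14. The means were 6.95 ± 0.20, 6.87 ± 0.24 and 6.41 ± 0.45 in Con, MS2 and MS5. The MS5 minus Con difference was -0.53 with all arrays, -0.42 without MS5 9 and -0.23 without MS5 9 and 14.

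Defb35 was the member whose MS5 arrays did not overlap the controls. It was at 6.70, 7.10, 7.09, 6.81 and 6.97 on the Con arrays and at 6.78, 6.74, 6.25, 6.93 and 6.44 on the MS2 arrays. It was at 6.46, 6.08, 6.42, 6.20 and 5.94 on the MS5 arrays, and again not well above background on MS5 9 and 14. MS2 4 and 7 fell below the Con range and the other MS2 arrays within it. The means were 6.93 ± 0.18, 6.63 ± 0.28 and 6.22 ± 0.22. The MS5 minus Con difference of -0.72 became -0.68 without MS5 9 and -0.57 without MS5 9 and 14. Near the floor that the offset sets, a fall on those arrays could show only in part. All MS5 arrays lay below all Con arrays for 0.519% of the 55681 probes.

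Defb1, a defensin that many epithelia make without induction, was not well above background on any of the 15 arrays. Its values ran from 5.79 to 5.89 in Con, 5.81 to 5.9 in MS2 and 5.73 to 5.97 in MS5. These probes therefore describe 4 expressed members and 1 that was not detected above background, and 4 of the 5 passed a filter on spots well above background throughout at least 1 group. Because an offset of 50 was added to every signal before the log, differences of dim probes are compressed on this scale. With no offset the MS5 minus Con differences were -2.02 for Defb11, -1.72 for Defb9, -1.29 for Defb10 and -1.65 for Defb35. Without MS5 9 and 14 the differences with no offset were -0.74, -0.59, -0.42 and -1.18 in the same order.

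**Figure D1:**
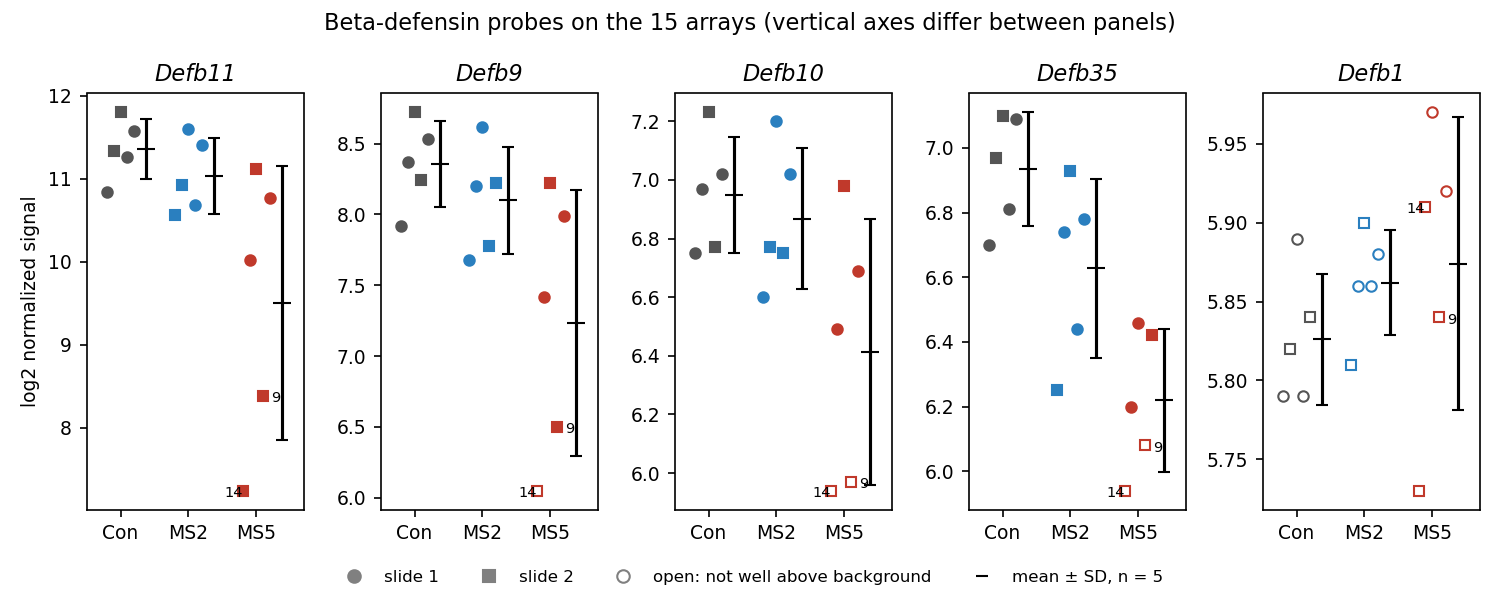
Each point is the log2 normalized signal of 1 array for the probe named above the panel, in Con, MS2 and MS5, with circles for slide 1, squares for slide 2 and open symbols where the spot was not well above background. Bars give the mean ± SD of 5 arrays, and in Defb11, Defb9, Defb10 and Defb35 the arrays MS5 9 and MS5 14 (marked 9 and 14) are the lowest.

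The values of MS5 against Con helped to choose these genes, so they are given without a test. At the study's threshold, a fold change above 1.5 with an unadjusted limma p under 0.05, 0.228% of all probes were called between MS5 and Con and 0.129% between MS5 and MS2. Defb11, Defb9 and Defb35 were among the former and Defb11 and Defb9 among the latter, which the choice fixes in large part. The study, which analysed fewer probesets, also listed Defb10 as lowered past this fold change. Its reported falls of Defb11, Defb10 and Defb35 were somewhat larger than those given here. It also reported qPCR of Defb11 on the same samples that varied with morphine dose. No probe of the array reached a limma adjusted p under 0.05 in any of the 3 comparisons, while 2173 had an unadjusted p under 0.05 between MS5 and Con, 2324 between MS2 and Con and 2211 between MS5 and MS2. The MS5 minus MS2 differences were -1.53 for Defb11, -0.86 for Defb9, -0.46 for Defb10, -0.41 for Defb35 and 0.01 for Defb1.

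MS2 against Con asks whether the lower dose with stress moved the same genes, and it was not used to choose them, although it shares the Con arrays with the comparison that was. No member passed the threshold, which 0.0233% of all probes did. The MS2 minus Con difference of Defb35 was -0.31 (SE 0.13, limma p = 0.0381, adjusted p = 0.970), a fold change of 1.24, and a two-sided exact permutation test over all assignments of the 10 arrays gave p = 0.0794. The difference was -0.21 without MS2 4, whose tissue markers went against its label, at a limma adjusted p of 1.0, and -0.38 without MS2 5, at a limma adjusted p of 0.738. For Defb11 the difference was -0.33 with a 95% interval from -1.56 to 0.91 (limma adjusted p = 0.978), and it was -0.21 without MS2 4 and -0.30 without the dim array MS2 5. For Defb9 it was -0.25 (adjusted p = 0.973), for Defb10 -0.08 (adjusted p = 0.983) and for Defb1 0.04 (adjusted p = 0.971). Without MS2 4 these were -0.17, -0.05 and 0.03, and without MS2 5 they were -0.28, -0.05 and 0.05. The exact permutation p-values of Defb11, Defb9, Defb10 and Defb1 were 0.246, 0.262, 0.603 and 0.167, and the smallest that 5 arrays against 5 allow is 0.00794. All MS2 arrays lay below all Con arrays for 0.393% of probes and for none of the members. Nothing says that the arrays of a group came from separate litters, so these p-values measure the spread between arrays.

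The arrays were on 2 slides, each holding all 3 groups. The MS5 minus Con difference of Defb11 was -0.83 on slide 1 and -2.65 on slide 2, which held both MS5 9 and 14. For Defb9 it was -0.57 on slide 1 and -1.55 on slide 2. For Defb10 it was -0.33 and -0.70, and for Defb35 -0.54 and -0.89. With the slide as a block the differences were -1.74, -1.07, -0.51 and -0.71 for Defb11, Defb9, Defb10 and Defb35. The MS2 minus Con difference of Defb11 was 0.00 on slide 1 and -0.82 on slide 2, and that of Defb35 was -0.21 and -0.44. The only MS2 arrays on slide 2 were MS2 4, whose tissue markers went against its label, and the dim array MS2 5.

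The detected members rose and fell together from array to array. Over the 15 arrays the Pearson correlation with Defb11 was 0.99 for Defb9, 0.95 for Defb10 and 0.83 for Defb35, with Spearman coefficients of 0.95, 0.96 and 0.87. MS5 14 and 9 were the arrays farthest from the Defb11 median, and without them the Pearson correlations were 0.96, 0.91 and 0.83 over 13 arrays. Over the 10 Con and MS2 arrays alone, in which the MS5 difference plays no part, they were 0.94, 0.89 and 0.80. Defb35 and Defb10 were the pair least alike, at 0.80 over 15 arrays and 0.55 over the 10. With Defb1, at background, the correlation of Defb11 was -0.31 over 15 arrays and -0.03 over the 10. Without MS5 9 the correlations of Defb9, Defb10 and Defb35 with Defb11 were 0.98, 0.94 and 0.80, and over the 9 Con and MS2 arrays other than MS2 4 they were 0.93, 0.92 and 0.70. The arrays share 2 slides and a common normalization, and these coefficients are descriptions without a test.

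Among 40111 probes well above background in at least 1 group and outside these genes, those most like Defb11 over the 15 arrays were Trpv4 (r = 0.992), a cation channel gated by cell swelling, Folr1 (0.990), a folate receptor, Wfdc2 (0.990), a secreted protein of the whey acidic protein family, 1500015O10Rik (0.989) and Trpm3 (0.989), another cation channel. Defb9 ranked 11 among 40114 probes by this measure, Defb10 ranked 55 and Defb35 ranked 263. Without MS5 9 and MS2 4 the ranks were 16, 69 and 327, and the 5 genes named had correlations from 0.987 to 0.992. Over the 10 Con and MS2 arrays the most alike were Vamp8 (0.982), a vesicle fusion protein, Calml4 (0.981), D730039F16Rik (0.979), Fam161a (0.977) and Car14 (0.973), a membrane carbonic anhydrase. Of these 10 genes Folr1, Calml4 and Car14 were on a list of 16 choroid plexus markers.

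Taken as a list, markers of the choroid plexus moved with the defensins, though not every marker did so on every array. All 16 genes of that list, such as Folr1, Aqp1, Clic6, Cldn2, Kl and Otx2, were well above background on all 15 arrays. All 16 were lower in MS5 than in Con, Prlr by a difference of only -0.03. Of the 16, 13 passed the threshold, which 0.228% of all probes did, and the median difference was -1.26 against 0 over all probes. The list was drawn up with results of these data known. The study had reported Aqp1, Folr1, Kl and others of it as lowered in MS5, so the choice fixes these counts in large part. None passed between MS2 and Con, where the median was -0.23. Without MS5 9, 7 of the 16 passed with a median of -0.98, and without MS5 9 and 14, 2 passed with a median of -0.37. Without MS2 4 the MS2 minus Con median was -0.14. Some markers went the other way on single arrays. On MS2 4, Otx2, Lmx1a and Prlr were at 13.18, 9.14 and 9.60, their highest values of the 15 arrays. There Defb11 was at 10.56 and the list mean was -0.30 against its Con mean. On MS5 14 Prlr was at 9.13, against at most 9.02 on the Con arrays. The mean log2 signal of the list was 10.93 to 11.85 on the Con arrays and 10.98 to 11.60 on the MS2 arrays. It was 11.12, 9.33, 11.36, 10.64 and 8.44 on MS5 8, 9, 12, 13 and 14. The summed unlogged signal of the list ran from 242000 to 367000 in Con, from 255000 to 332000 in MS2 and from 13000 to 297000 in MS5. That sum mostly follows Ttr, at a Con mean of 17.95 on the log2 scale, with the next brightest, Folr1, at 13.86. Ttr itself was not called between MS5 and Con. The same MS5 arrays were thus lowest for the list and for the defensins. In bulk tissue, fewer cells of a type and less RNA per cell cannot be told apart.

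The correlation of Defb11 with the mean of the list was 0.99 over 15 arrays, 0.93 without MS5 9 and 14 and 0.91 over the Con and MS2 arrays. For Defb9, Defb10 and Defb35 it was 0.97, 0.94 and 0.79 over 15 arrays and 0.82, 0.84 and 0.63 over the Con and MS2 arrays. Without MS5 9 and MS2 4 the coefficients of Defb11, Defb9, Defb10 and Defb35 over the 13 other arrays were 0.99, 0.97, 0.93 and 0.80. The genes and the list were both chosen with MS5 results known. Coefficients that include MS5 arrays therefore follow in part from the choice. Defb11 minus its Con mean was -0.59, -2.98, -0.24, -1.34 and -4.12 on MS5 8, 9, 12, 13 and 14. The list minus its own Con mean was -0.30, -2.09, -0.06, -0.78 and -2.98. Defb11 was further below its Con mean than the list on each MS5 array. Defb9 stood at -0.37, -1.85, -0.13, -0.93 and -2.30 on the same arrays, above the list on MS5 9 and 14 and below it on the others. Defb10 stood at -0.26, -0.98, 0.03, -0.46 and -1.01, above the list on every MS5 array. Defb35 stood at -0.47, -0.85, -0.52, -0.73 and -1.0, below the list on MS5 8 and 12 and above it on MS5 9, 13 and 14. Taking the list from each gene, the MS5 minus Con difference was -0.61 for Defb11, 0.13 for Defb9, 0.71 for Defb10 and 0.53 for Defb35, values that include arrays on which Defb9, Defb10 and Defb35 lay near the floor of the scale. The SD of gene minus list over the Con arrays was 0.11, 0.18, 0.27 and 0.22 in the same order. Over the MS5 arrays it was 0.40, 0.34, 0.83 and 1.04. The part of the choroid plexus content in the defensin values was not tested.

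**Figure D2:**
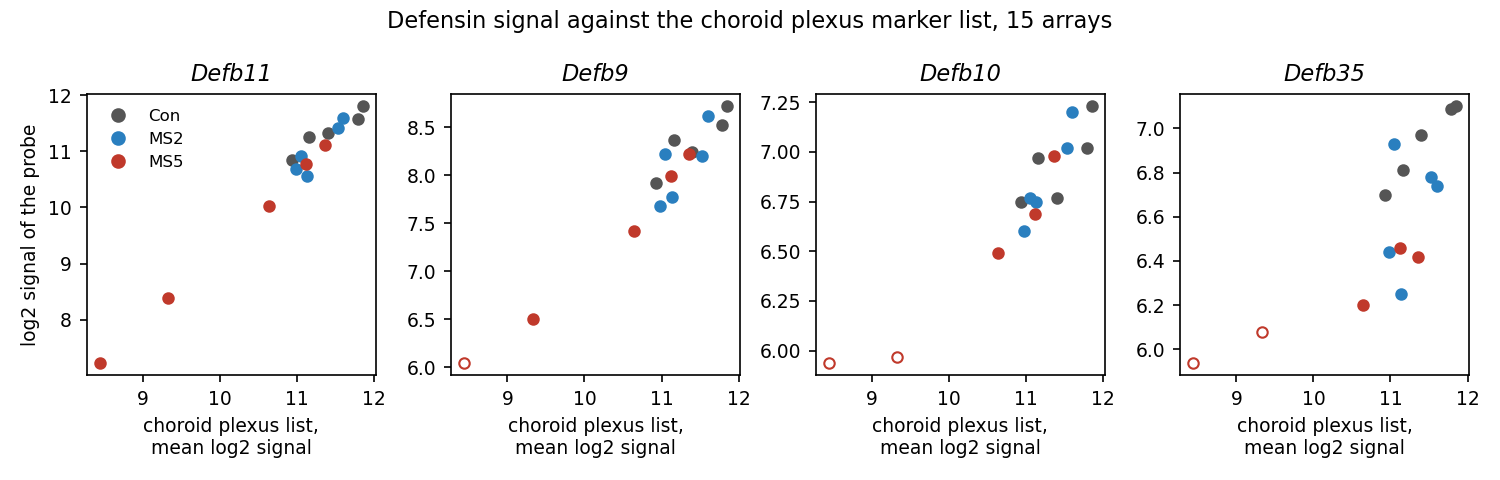
Each point is 1 array, with the mean log2 signal of the 16 choroid plexus markers on the horizontal axis and the log2 signal of the defensin probe on the vertical axis, coloured by group and open where the spot was not well above background. The MS5 arrays 14 and 9 sit at 8.44 and 9.33 on the horizontal axis and are the lowest for all 4 genes.

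The lists for other cell types and tissues were measured in the same way. The 6 ependymal genes were all lower in MS5, with a median difference of -0.40 and none called. Their list mean correlated with Defb11 at 0.68 over 15 arrays, 0.87 over the Con and MS2 arrays and 0.81 over those without MS2 4. The 10 genes of the meninges were also all lower in MS5, with a median of -0.21 and none called. Their correlations were 0.24 over 15 arrays and 0.43 over Con and MS2. Of the 9 hippocampal neuron genes 7 were lower in MS5, and the list had a median of -0.19 with none called. Its correlations were 0.06 and 0.50 over the same sets, the latter -0.25 without MS2 4. Its mean was 12.20 on both MS5 9 and MS5 14. The 9 microglial genes, 1 of them lower in MS5, had a median of 0.05 with none called and correlations of 0.08 and 0.07. The 5 blood genes were all lower in MS5, with a median of -0.40, none called and correlations of 0.52 and -0.20. Of the 9 hypothalamic and thalamic genes 3, namely Avp, Oxt and Trh, were called higher in MS5, where 0.228% of all probes were called. The study had already reported Avp and Trh as raised. In MS5 2 of the 9 were lower. The list median was 0.24 and the correlations were -0.24 and -0.50, the latter 0.11 without MS2 4. Against its Con mean this list stood at 1.34, 1.01 and 1.21 on MS5 8, 12 and 14, and at -0.04 and 0.29 on MS5 9 and 13. Without MS5 9 the ependymal, blood and hypothalamic medians were -0.22, -0.43 and 0.35. On MS2 4 the hypothalamic and thalamic list stood at 11.14, against 8.07 to 9.67 elsewhere. The difference from the Con mean there was -0.80 for Defb11, -0.58 for Defb9, -0.19 for Defb10 and -0.68 for Defb35. Defb10 was not below every Con array there. The neuron list there was at 10.00.

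**Figure D3:**
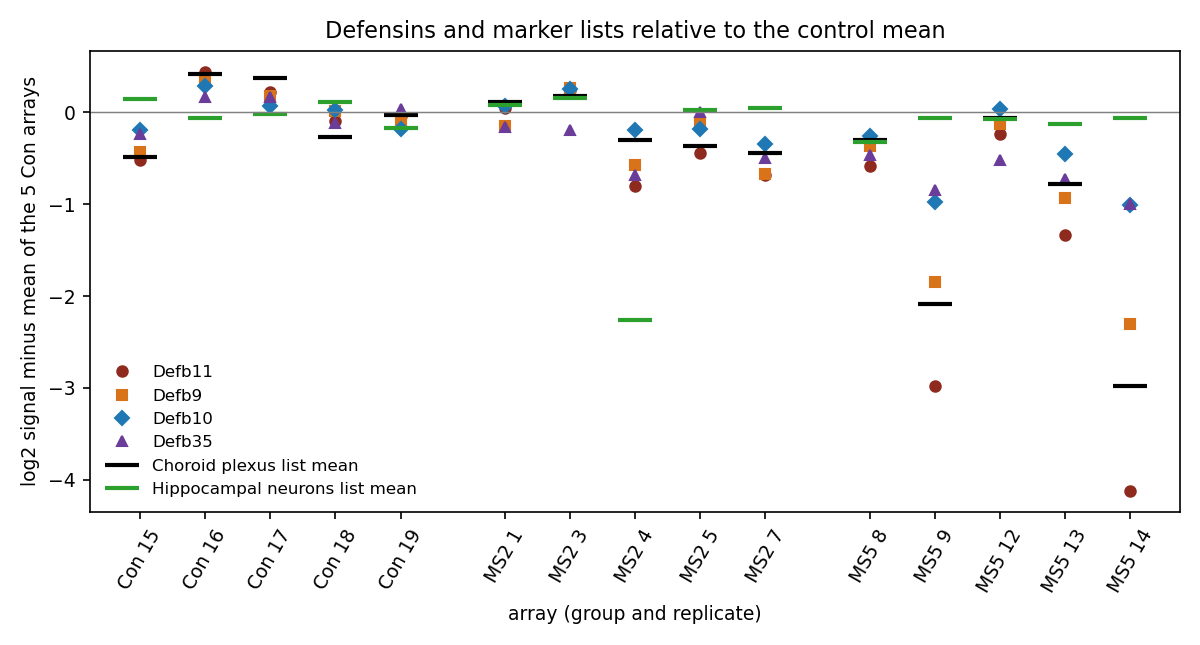
For each of the 15 arrays, symbols give the log2 signal of Defb11, Defb9, Defb10 and Defb35 minus the mean of the 5 Con arrays, and dashes the same for the mean of the choroid plexus and hippocampal neuron lists. On MS5 9 and 14 the choroid plexus dash lies at -2.09 and -2.98, and on MS2 4 the neuron dash is the lowest.

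The cluster itself held probes for 9 beta-defensins within 153.9 kb. Counted from the Defb1 probe, Defb50 lay at 36.6 kb, Defb2 at 48.8, Defb10 at 67.3, Defb9 at 87.2, Defb11 at 110.9, Defb15 at 135.4, Defb35 at 146.2 and Defb13 at 153.9 kb. Defb15 stood between Defb11 and Defb35. The Defb15 probe was well above background on 5 Con, 4 MS2 and 4 MS5 arrays, at 6.41 ± 0.06, 6.34 ± 0.04 and 6.33 ± 0.09, and its MS5 minus Con difference was -0.07 (exact permutation p = 0.198, limma adjusted p = 1.0), or -0.19 with no offset. At so dim a signal a change like that of its neighbours could have been compressed. Defb13 was above background on 2 Con, 3 MS2 and 3 MS5 arrays with a difference of -0.06, Defb2 on 1 Con and 1 MS2 array with -0.09 and Defb50 on none with -0.02. Their exact permutation p-values, unadjusted, were 0.373, 0.0238 and 0.603 in this order. With no offset their differences were -0.2, -0.39 and -0.16. No MS5 minus Con and no MS2 minus Con difference of Defb15, Defb13, Defb2 and Defb50 was called.

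**Figure D4:**
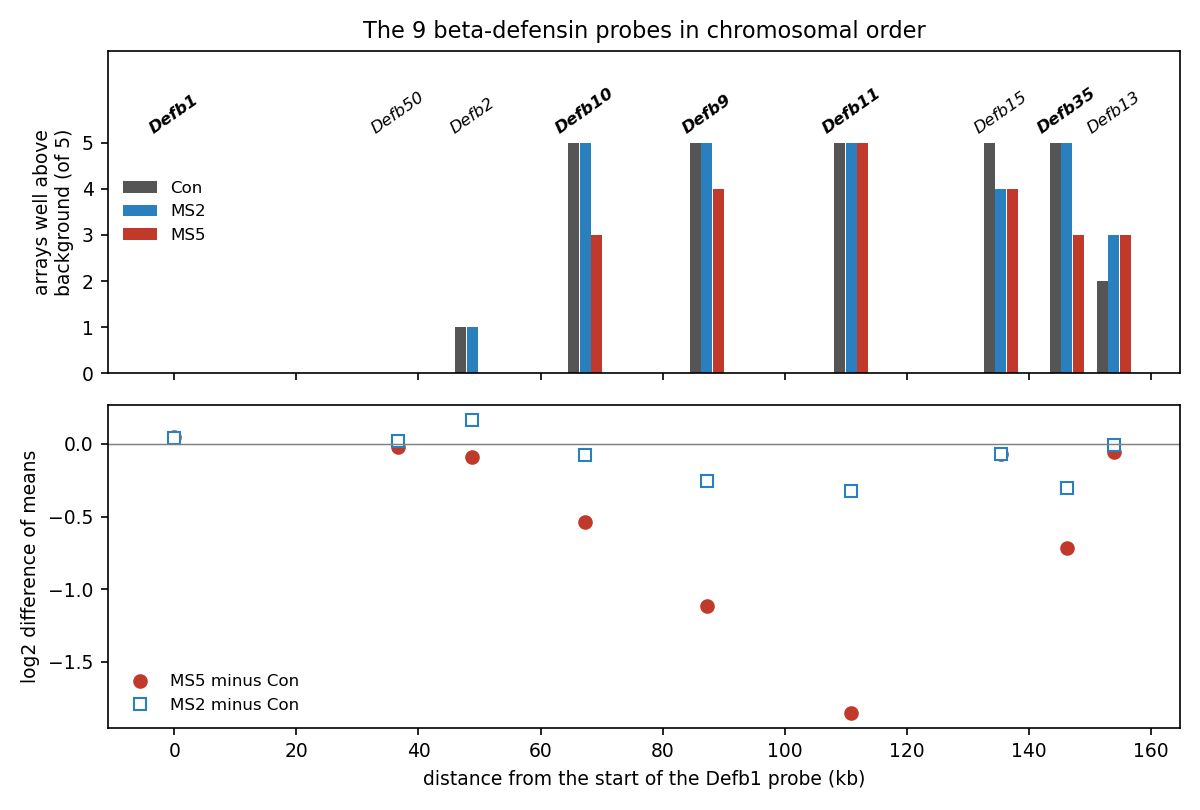
The 9 beta-defensin probes are placed by distance in kb from the Defb1 probe, with the 5 genes described here in bold. The upper panel counts the arrays of each group, of 5, on which the spot was well above background, and the lower panel gives the log2 differences of means, lowest at Defb11 with -1.85 for MS5 minus Con, with the dim Defb15 probe at -0.07 next to it.

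Over the whole family, the other 46 beta-defensin probes, for 38 genes, had no call in any of the 3 comparisons. Over all probes 0.0233% were called between MS2 and Con, 0.228% between MS5 and Con and 0.129% between MS5 and MS2. At such shares 0 calls in a list of this size tell little. An unadjusted limma p under 0.05 was reached by 2 of them between MS2 and Con, by 1 between MS5 and Con and by 1 between MS5 and MS2, and their median differences were 0.01, 0 and 0. Of these probes 19 were well above background on no array, 7 on all 15, and 13 on all arrays of at least 1 group, so for most of them a change could not be measured. The highest Con mean among the 46 was 6.74, for Defb45.

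The 36 probes of 29 other genes within 500 kb of the outermost members, among them alpha-defensins, had no call either, with 2 probes at an unadjusted p under 0.05 in each comparison. The lowest MS5 minus Con difference among them, chosen after its values were seen, was that of 1 of 2 probes of the kinase gene Nek5, at -0.62 (exact permutation p = 0.143, limma adjusted p = 1.0), with the other probe at -0.05. Of the 72 probes for alpha-defensins, other antimicrobial proteins, receptors of beta-defensins and the sensors and cytokines that induce them, none was called in any comparison. With 0.228% of all probes called between MS5 and Con, 0 calls among the 36 or the 72 tell little. Between MS5 and Con 4 of the 72 had an unadjusted limma p under 0.05, at adjusted p = 1.0. Over the array 2173 of 55681 probes did, so the count of 4 is not read as a result about the list. The 4 were Tlr2, a sensor of bacterial lipoproteins, at -0.32, Lyz1, a lysozyme, at -0.30, Rela, an NF-kB subunit, at -0.11, and Slpi, an antimicrobial protease inhibitor, at -0.52. The Con values of Slpi ran from 6.46 to 8.16 and those of MS5 from 6.32 to 6.67, and its MS2 minus Con difference was -0.50 (exact permutation p = 0.0714, limma adjusted p = 0.970). The cathelicidin gene Camp, read by 2 probes, had MS5 minus Con differences of -0.06 and -0.18, with exact permutation p-values of 0.675 and 0.595.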

How the data were processed

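The deposited values used here are log2 signals of 15 mRNA arrays, made by the authors from one-colour Agilent scans by normexp background adjustment with an offset of 50 and quantile normalization. The submitters' processing notes name RMA. The deposited scanner files give each spot's signal as an intensity with flags. Recomputing the log2 table from the mean and background intensities reproduced it within 5e-09 at 55681 probes. Groups came from sample titles. limma 3.58.1 in R 4.3.3 fitted the 3 groups together, with Benjamini-Hochberg adjustment over all probes, and the fit was tested on simulated data. Control spots were left out. The genes and the lists were chosen with earlier results of these data known. Named genes were the members, list genes passing the threshold, the 5 most like Defb11, and choroid plexus markers. Alignments used Biopython 1.88. The miR arrays were not used here. The number of arrays limits the precision of every value.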

Additional observations from a re-analysis of the deposited data

How the results depend on the processing

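No paired analysis was possible because the compared groups share no replicate number. Recomputing from the scanner files, array weights, the filter on spots above background, the slide as a block and fits of only the 2 groups compared left every member's direction, and no member was called between MS2 and Con under any alternative. Defb1 did not pass that filter and has no value there. The offset mattered for dim probes. With no offset the MS5 minus Con differences were -1.65 for Defb35, -1.29 for Defb10 and 0.26 for Defb1, and MS5 minus MS2 was -1.05 for Defb35 and -1.15 for Defb10. With each array's 75th percentile taken off the log2 processed signal of the scanner, MS5 minus Con was -2.30, -2.02, -1.99 and -0.03 for Defb35, Defb10, Defb9 and Defb1, and MS5 minus MS2 was -1.58, -1.85, -1.70 and -0.20. Within slide 2, whose MS2 arrays were only MS2 4 and MS2 5, MS2 minus Con was -0.82 for Defb11. Within slide 1 it was 0.03 for Defb10, against -0.08 over both slides, and MS5 minus Con was 0.12 for Defb1.

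Leaving out each array in turn, MS5 minus Con ran from -2.26 to -1.29 for Defb11, from -1.36 to -0.82 for Defb9, from -0.68 to -0.42 for Defb10, from -0.78 to -0.64 for Defb35 and from 0.02 to 0.09 for Defb1. MS2 minus Con ran from -0.47 to -0.21, from -0.38 to -0.15, from -0.16 to -0.01, from -0.38 to -0.21 and from 0.03 to 0.06 in the same order. MS5 minus MS2 ran from -1.93 to -0.96, from -1.11 to -0.57, from -0.60 to -0.34, from -0.50 to -0.33 and from -0.02 to 0.05. Leaving out MS2 4 and MS5 9 together, or MS5 9 and 14 together, was added after the data were seen, as were the correlations, ranks and list medians without these arrays and the values with no offset without MS5 9 and 14. Without MS2 4 and MS5 9 the MS5 minus Con difference of Defb11 was -1.57.

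The lists had 0 calls, with these exceptions. Among other beta-defensins 1 probe (Defb12) was called between MS5 and Con with no offset, and 2 (Defb20 and Defb12) with the processed signal, where 2 (Defb2 and Defb42) were called between MS5 and MS2. Among neighbours 1 probe, of Nek5, was called between MS5 and Con with array weights, and from 0 to 1 leaving out each array, which was without Con 15, Con 18, MS5 8 or MS5 12. Among antimicrobial and sensing genes 1, Slpi, was called against Con in both MS2 and MS5 with no offset and with the processed signal, and from 0 to 1 leaving out each array, which was without Con 15, 16 or 17.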
